A study of Mus musculus with 4 samples.

Results

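MOV10 is an RNA helicase that works with Argonaute proteins in microRNA-guided silencing, and its binding sites on RNA were mapped by eCLIP in N2A cells, an established mouse neuroblastoma line. In eCLIP, protein is crosslinked to RNA with ultraviolet light, the protein is immunoprecipitated, and the attached RNA fragments are sequenced beside a size-matched input. The study made 4 libraries from untreated cells without a genetic change named in the labels, 2 from immunoprecipitates with an anti-MOV10 antibody and 2 from inputs. The peaks described here are those of the deposited list of 12236 whose midpoint lies where the annotated spans of 2 or more genes overlap, whatever the strand of these genes. They were found by setting each midpoint against the RefSeq gene spans of GRCm38.p6. They numbered 755, or 6.17% of the list (exact 95% binomial interval 5.75 to 6.61%), against 11207 peaks (91.6%) in exactly 1 gene and 274 (2.24%) in no gene.

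A stretch of the genome can carry genes on both strands, and an RNA made from it belongs to the gene whose strand it matches. Many neighbouring genes run towards each other, so that the ends of their transcripts, where the 3′ untranslated regions lie, share the same bases. Long non-coding RNAs (lncRNAs) are often annotated opposite coding genes, and microRNA hairpins and pseudogenes can lie inside longer genes. MOV10 is known to bind 3′ untranslated regions, and eCLIP keeps the strand of each fragment. The strand of a peak therefore separates the overlapping genes wherever their own strands are known.

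The list gave each peak 1 pair of values over all libraries. They were read here as a log2 ratio of immunoprecipitate to input, called log2 fold enrichment below, and as its −log10 p. No value per library was analysed here, so no spread between replicates could be given, and differences between sets of peaks below are descriptions without a test. The labels do not say whether the replicates came from separate cultures. Depth was unknown, and the listed enrichments start just above 3, so weaker binding is outside the list. Levels of marker genes of the cell line were not analysed here.

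Sequence could be read for the bases of 3 of these peaks, where RefSeq tables of microRNAs and of gene starts cover them. They are shown because they place a peak on a microRNA hairpin and on the start of an antisense lncRNA. Ctdsp2, which encodes a small C-terminal domain phosphatase and hosts the microRNA gene Mir26a-2, holds a second hairpin, Mir546, on the same strand near its 3′ end. Capitals in the microRNAs mark the seed, bases 2 to 8. Capitals in the peak mark its bases that belong to the mature microRNA. Capitals in the last pair mark the transcribed bases of the lncRNA 1700041B01Rik, first on its own strand and then on the strand of the peak, which is that of Elfn2. All are RefSeq GRCm38.p6 sequences, 5′ to 3′.
mmu-miR-546, chr10:126998471-126998486, plus strand: aUGGUGGCacggaguc
mmu-miR-26a-5p, chr10:126995543-126995564, plus strand: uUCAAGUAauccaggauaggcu
Ctdsp2 peak, first 30 bases, chr10:126998481-126998510, plus strand: GGAGUCagcuagauguugucucuugcuauc
1700041B01Rik start, chr15:78670623-78670652, plus strand: aggggccaggaacctGGCCCTGCACCCTGA
Elfn2 peak, the same bases, minus strand: TCAGGGTGCAGGGCCaggttcctggcccct

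The 755 peaks fell into 157 loci, each a distinct set of overlapping genes, with 315 genes on 20 chromosomes. They lay on the plus strand in 372 cases and on the minus strand in 383. Exactly 2 genes overlapped at 733 peaks and 3 genes at 22. A coding gene overlapped a lncRNA at 389 peaks (51.5%, 64 loci), and coding genes overlapped each other at 292 (38.7%, 79 loci). A coding gene overlapped a pseudogene at 50 peaks (6.62%, 11 loci) and a small RNA gene at 2 peaks in 1 locus. The remaining peaks were in 2 loci of 3 genes, with 17 and 5 peaks. The peaks were unevenly spread, with 56 loci (35.7%) holding 1 peak each, a median of 2 per locus, and 243 peaks (32.2%) in the 10 fullest loci. Many abutted one another, and merging those that touched left 510 intervals covering 64855 nt.

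Strand assigned most of these peaks to a single coding gene. Of the 755 peaks, 621 (82.3%, exact 95% binomial interval 79.3 to 84.9%) had exactly 1 of the overlapping genes known to lie on their strand, and all 128 genes so matched were coding. At 487 of them, in 94 loci, every other gene lay on the opposite strand. At the other 134, in 33 loci, the strand of the other gene was not known, so that gene could share the strand. A further 42 peaks in 9 loci had several genes on their strand. The remaining 92 peaks in 21 loci had no gene known to be on their strand, of which 41 in 6 loci could be placed by elimination, since the other gene lay on the opposite strand. No peak had all its genes on the opposite strand, which could occur only where all of them share 1 known strand.

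The strand of the 315 genes came from RefSeq tables for 239 (75.9%) and from the strand of their own peaks outside the overlap for 8 (2.54%), and was not known for 68 (21.6%). As a check, peaks inside 1 gene of known strand lay on that strand in 8764 of 8777 cases (99.9%). The 13 exceptions (0.148%) were in 3 genes, Mfsd4a with 7, Tigit with 4 and Zfp335 with 2.

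Where a coding gene and a lncRNA lay on opposite strands, every listed peak was on the coding strand. These were 264 peaks in 39 loci with both strands known, and 264 were on the coding strand against 0 on the lncRNA strand. A count of 0 of 264 allows a share of up to 1.14% by counting error alone, and 0 of 39 loci allows 7.69%. None of these 39 lncRNAs had a peak outside the overlap either, but 3 of them lie wholly inside the coding gene and could have none. How many of all annotated lncRNAs have a listed peak was not counted here. These counts therefore cannot be set against lncRNAs in general. Among the coding genes, 6 had further peaks outside the overlap and 33 did not, among them those nested in the lncRNA, which could have none. The amount of each RNA in the cells was not analysed here, so a lncRNA without a peak cannot be told apart from one too scarce to give one.

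Ube3a shows this arrangement in a well-known pair. Ube3a encodes a ubiquitin ligase that is imprinted in neurons, and Snhg14 is the long antisense transcript that runs through it. The locus held 2 peaks, chr7:59306211-59306244 at a log2 fold enrichment of 3.40 and chr7:59306245-59306329 at 3.26. Both were on the plus strand, that of Ube3a (chr7:59228750-59310837), and lay 4550 to 4609.5 nt from its 3′ end. No peak was listed on the minus strand of this overlap.

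Elfn2, a leucine-rich repeat protein of neurons, overlaps 1700041B01Rik, whose first transcribed bases are shown above. One Elfn2 peak, chr15:78670554-78670762 at 3.47, spans the annotated start of the lncRNA at position 78670638. It was on the minus strand of Elfn2, 3325 nt from the gene's 3′ end. A second, chr15:78671431-78671619 at 3.20, lay on the same strand inside the lncRNA.

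Overlaps of coding genes on opposite strands held 223 peaks in 55 loci, all matched by strand to 56 coding genes. Pcbp2 and Map3k12 were the pair with peaks for both genes. Pcbp2 encodes a poly(C)-binding protein that regulates mRNA stability and translation, and Map3k12 a kinase of neuronal stress signalling. On the Pcbp2 strand the peaks were chr15:102499050-102499127 at a log2 fold enrichment of 3.37 and chr15:102499337-102499454 at 3.43. On the Map3k12 strand the peak was chr15:102499631-102499732 at 3.16, with a −log10 p of 3.02 against 12.4 and 11.2 for those of Pcbp2. Every other locus had its peaks on a single strand.

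Few partner genes had peaks of their own, and few coding genes in general did. With overlap peaks included where strand matched them to 1 gene alone, 1766 of 21900 annotated coding genes had a peak. Among the 56 coding genes, the opposite coding partner had peaks of its own strand outside the overlap in 3 cases, Septin11, Scrn1 and Pcbp2. Septin11, a cytoskeletal GTP-binding protein, had 39 peaks up to 4.99, all 7537 to 10864 nt before its own 3′ end and outside the overlap. Within the overlap, the 7 peaks were on the strand of Ccni, which encodes cyclin I. Scrn1 had 1 peak at 3.14, placed 34113.5 nt from its 3′ end, while Wipf3, a WASP-interacting protein, held all 16 peaks of their overlap.

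The overlapping genes with peaks mostly ran tail to tail, that is, with their 3′ ends inside each other. Among coding pairs on opposite strands, 45 of 55 loci with peaks (81.8%) ran tail to tail, against 523 of all 1211 such annotated pairs (43.2%). Pairs that overlap head to head, at their 5′ ends, made up 0 of 55 loci with peaks, which allows a share of up to 5.45%, against 458 annotated pairs (37.8%). Pairs with 1 gene nested inside the other made up 10 loci (18.2%) against 230 annotated pairs (19.0%). Among coding genes with an opposite lncRNA, tail to tail pairs made up 33 of 39 loci with peaks (84.6%) against 410 of 2825 annotated pairs (14.5%). Head to head pairs made up 0 of these 39 loci against 807 annotated pairs (28.6%), and nested pairs 6 (15.4%) against 1608 (56.9%). A locus counts only where a peak lies in the shared stretch, at the 3′ ends of tail to tail pairs and the 5′ ends of head to head pairs. Peaks in 1 gene lay within 5 kb of the 3′ end in 87.2% of cases and of the 5′ end in 2.58%. These shares of loci are therefore not independent of how the loci were chosen. The annotated pairs were not limited to genes expressed in these cells, and the part of expression in the difference was not tested. By peaks, tail to tail pairs held 205 of the coding overlaps and 211 of the lncRNA overlaps, and nested pairs 18 and 53. In the opposite-strand loci where the strand-matched gene ended inside its partner, the overlap had a median length of 3142 nt, with a range of 234 to 105240 nt.

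**Figure D1:**
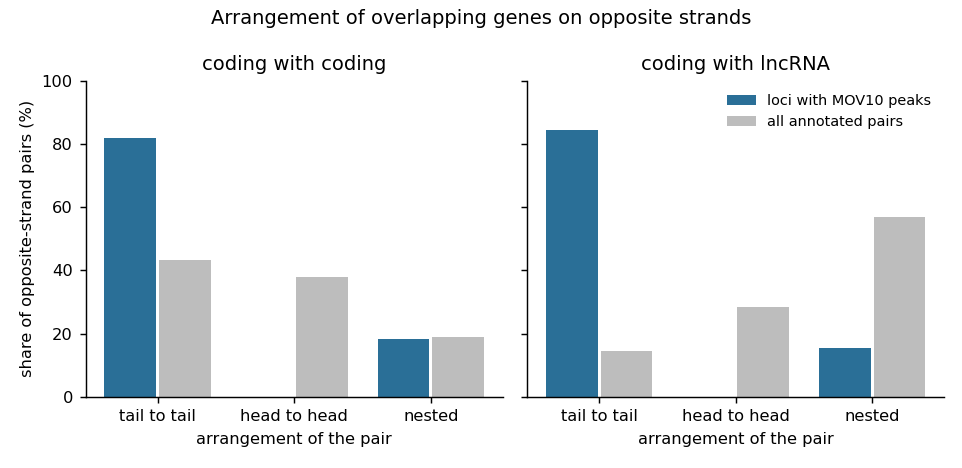
Bars give the share, in percent, of pairs of genes on opposite strands that overlap tail to tail, head to head or nested, for loci with MOV10 peaks (blue) and for all annotated pairs (grey). Tail to tail pairs made up 81.8% of coding loci with peaks against 43.2% of annotated pairs, and 84.6% against 14.5% for a coding gene with a lncRNA, while no locus with peaks was head to head. Loci count only where a peak lies in the shared stretch, so the blue shares depend on where peaks lie within genes.

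The peaks lay near the 3′ ends of the genes they matched by strand. Of the 621 assigned peaks, 585 (94.2%, exact 95% binomial interval 92.1 to 95.9%) were within 5 kb of the annotated 3′ end, against 7645 of 8764 peaks in 1 gene (87.2%). Within 2 kb the counts were 435 (70.0%) against 5434 (62.0%). Their distance to it had a median of 1201 nt (quartiles 515.5 and 2281.5), against 1476.25 nt for peaks in 1 gene. Within 5 kb of the 5′ end lay 9 peaks (1.45%) against 226 (2.58%). In genes spanning at least 15 kb, where the windows at the ends cannot meet, 489 of 525 peaks (93.1%) were within 5 kb of the 3′ end against 6750 of 7843 (86.1%). Overlaps of genes often hold an end of a gene, so these shares are not independent of how the peaks were chosen. The interval treats each peak as independent although many abut, so it is likely too narrow.

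Away from the 3′ end, 36 of the 621 peaks in 14 loci lay more than 5 kb from it. They were 13 of 49 peaks (26.5%) in overlaps with a pseudogene, 13 of 308 (4.22%) in overlaps with a lncRNA, and 10 of 264 (3.79%) in overlaps of coding genes. Luc7l had the most, 6 peaks 15213 to 15774 nt from its 3′ end. Cfap97d2 had 4 at 20820.5 to 24220.5 nt and Farp2 had 3 at 36128 to 36395.5 nt. The strands of their partners, Gm16580, Gm46032 and Gm18874, were not known, nor was that of any pseudogene in these overlaps. Such peaks could belong to the partner, whose ends were not used for these distances. The farthest was a peak of Cmss1, 89668 nt from its 3′ end and at 3.02 close to the lower limit of the list. The Glb1 peak, at 64364 nt, lay inside the much shorter Tmppe, whose strand was not known.

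The strength of peaks in overlaps was close to that of peaks in 1 gene. The median log2 fold enrichment was 3.67 (quartiles 3.32 and 4.08), against 3.71 (3.35 and 4.20), a difference of −0.039. In linear terms the medians were 12.7-fold and 13.1-fold. The highest was 6.07 in an overlap (67.1-fold) against 6.93 in a single gene (122-fold). An enrichment of at least 4 on the log2 scale, or 16-fold, was reached by 229 peaks in overlaps (30.3%), against 3775 peaks in 1 gene and 33.7% of all peaks, and 60 of the 157 loci had such a peak. The median −log10 p was 8.96 (quartiles 5.74 and 14.6) against 10.3 (6.22 and 17.5). The list stops at a −log10 p of 400, a ceiling reached by 0 peaks in overlaps, which allows a share of up to 0.397%, and by 0.686% of all peaks. The highest in an overlap was 71.6. Widths had a median of 77 nt (range 3 to 333) against 73 nt.

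**Figure D2:**
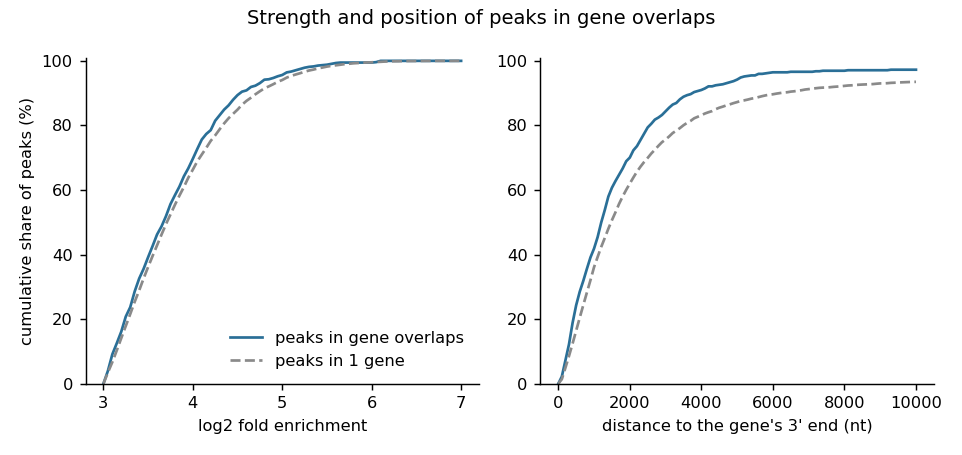
Curves give the cumulative share of peaks, in percent, by log2 fold enrichment (left) and by distance in nt to the 3′ end of the strand-matched gene (right), for peaks in gene overlaps (solid blue) and peaks in 1 gene (dashed grey). The strength curves run close together, with medians of 3.67 and 3.71, and the distance curve of the overlap peaks rises earlier, with 94.2% against 87.2% within 5000 nt.

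Strength varied with the kind of overlap. Overlaps with a lncRNA had a median of 3.73, with 137 peaks (35.2%) at 4 or more, against 3.53 and 62 peaks (21.2%) in overlaps of coding genes. The difference of 0.205 was 0.153 without the Cplx2 locus and 0.181 when each locus was represented by its strongest peak. A strongest peak tends to be higher where more peaks are listed. Overlaps with a lncRNA held 389 peaks in 64 loci, against 292 in 79, so the last value does not remove this imbalance. Overlaps with a pseudogene had a median of 3.66, with 14 of 50 (28.0%) at 4 or more. At the boundary of the selection, the 9 peaks with their midpoint but not their full width in an overlap had a median of 3.95 (range 3.06 to 4.50). The 9 that touched an overlap with their midpoint outside it had 3.65 (3.07 to 4.58).

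Within the same gene, peaks inside the overlap were stronger in some genes and weaker in others than those outside it. Among the 15 genes with at least 3 peaks of each kind, the median inside was the higher in 10 and the lower in 5, with a median difference of 0.086 and a range from −0.47 to 0.74. Mef2d, a transcription factor of muscle and neurons, had the largest positive difference, with 4 peaks inside at a median of 4.38 and 16 outside at 3.64. Ccnd1, cyclin D1, whose strand here rests on its own peaks, had 5 inside at 3.95 and 14 outside at 3.38. Pou2f1, the octamer-binding factor Oct-1, had 31 inside at 3.86 and 5 outside at 3.35. Ccni differed the other way, with 7 inside at 3.87 and 21 outside at 4.34.

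The locus with the most and the strongest peaks was Cplx2, which encodes complexin 2, a regulator of synaptic vesicle fusion. The gene (chr13:54301964-54383923, plus strand) lies wholly inside the lncRNA LOC115488208 on the minus strand. Its 37 peaks had log2 fold enrichments from 3.18 to 6.07, with a median of 4.85, and 32 reached 4 or more. The strongest was chr13:54382360-54382447, with a −log10 p of 33.1, and the highest −log10 p among the 37 was 71.6. All lay on the strand of Cplx2, 66 to 5060 nt from its 3′ end. The weakest peak was the farthest from that end.

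Dcaf7, a WD40-repeat adaptor protein (chr11:106036872-106059324, plus strand), held 33 peaks where it overlaps Taco1os, a lncRNA on the minus strand. Their enrichments ran from 3.56 to 5.59 with a median of 4.37, and the strongest was chr11:106055786-106055840. They lay 301 to 4180 nt from the 3′ end of Dcaf7. Dcaf7 had no peak outside its overlap, and Cplx2, nested in its partner, could have none. An assignment that leaves overlaps out gives both genes 0 peaks.

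Pou2f1 (chr1:165865150-166002749, minus strand) shares 6004 nt at its 3′ end with Cd247, which encodes the zeta chain of the T cell receptor complex. The 31 peaks there had enrichments from 3.21 to 4.65 with a median of 3.86, all on the strand of Pou2f1. They lay 549 to 5797.5 nt from its 3′ end, and 5 further peaks lay in Pou2f1 beyond the overlap.

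Adgrl1, the adhesion receptor latrophilin 1, held 25 peaks opposite the lncRNA Gm10644, with a median of 4.05. Its strongest, chr8:83940902-83940962 at 6.05, stood apart from the other 24, of which the next reached 5.01. Cbx6, a chromodomain protein of Polycomb complexes, held 24 peaks with a median of 3.79 and a maximum of 5.23 at chr15:79824684-79824698. They are counted as an overlap because Npcd, a coding entry of unknown strand here with the synonym Cbx6-Nptxr, spans from the start of Nptxr to the end of Cbx6.

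Syt1, the calcium sensor of synaptic vesicle release, held 17 peaks opposite Gm36601 with a median of 3.98 and a maximum of 5.11. Fstl1, a secreted follistatin-like glycoprotein, held 18 opposite Gm41452, at a median of 3.80. Msl1, a scaffold of a histone acetyltransferase complex, held 13 with a median of 4.01 and a maximum of 5.56. Zfp704, a zinc finger factor, held 15 with a median of 3.61, spread 753.5 to 9257 nt from its 3′ end. The strands of Gm12359 and C030034L19Rik, the partners of Msl1 and Zfp704, were not known.

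**Figure D3:**
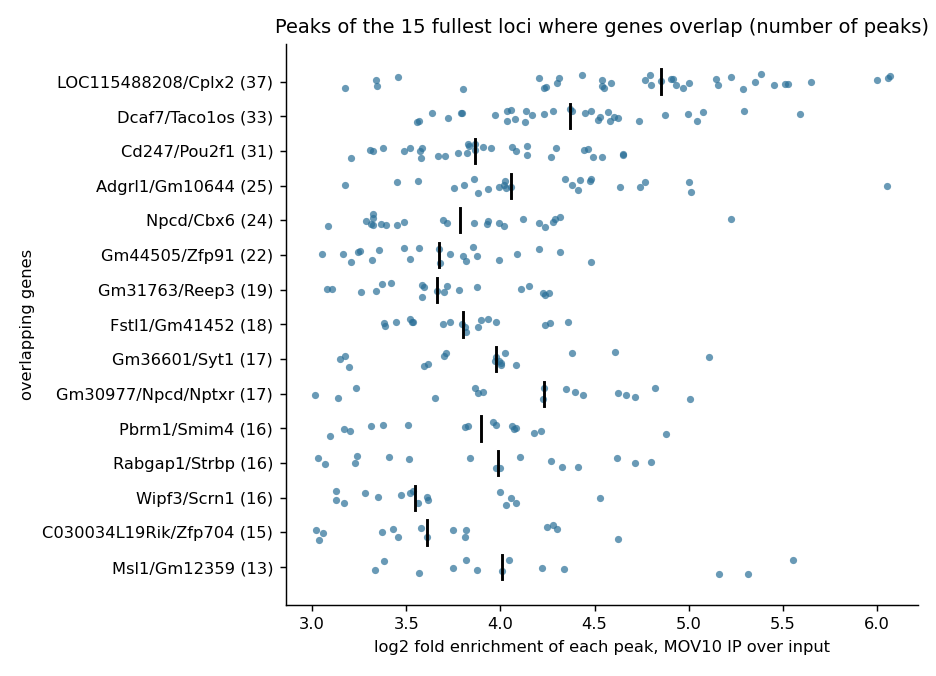
Points are the log2 fold enrichments of single peaks in the 15 loci with most peaks, jittered vertically, with the number of peaks in parentheses and the median as a black bar. LOC115488208/Cplx2 has the highest median, at 4.85, and the Adgrl1/Gm10644 locus has a lone peak at 6.05.

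Among coding pairs on opposite strands, the fullest after Pou2f1 were those of Pbrm1, Strbp and Wipf3 with 16 peaks each. Pbrm1, a subunit of a SWI/SNF chromatin remodeller, overlaps the mitochondrial membrane protein gene Smim4. Its peaks ran from 3.09 to 4.88 with a median of 3.89, 80 to 1881.5 nt from its 3′ end. Strbp, an RNA-binding protein, overlaps Rabgap1 and had 16 peaks inside the overlap at a median of 3.98, beside 15 outside it. Wipf3 had a median of 3.55. Lrrc47 opposite Smim1 had 9 peaks up to 4.49, Sos1, a Ras activator, 9 opposite Arhgef33 up to 4.05, and Zbtb20 9 opposite Tigit up to 3.92. Ccni opposite Septin11 had 7, up to 4.29. The overlap of Ccni was 436 nt long, and its 7 peaks, the highest with a −log10 p of 66.4, lay 74.5 to 385 nt from its 3′ end.

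A few loci with fewer peaks were among the strongest. Prepl, a peptidase-like protein, overlaps the amino acid transporter gene Slc3a1 and had 4 peaks at 5.40, 3.73, 3.96 and 3.95, the first at chr17:85063681-85063879. Ube4a, a ubiquitin chain elongation factor, had 5 peaks opposite Gm30934 at 4.41, 4.09, 4.05, 3.93 and 5.25. Mef2d had 4 opposite 1700113A16Rik at 4.46, 4.18, 4.30 and 5.11. In each of these loci, 1 peak stood above the rest.

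Lix1l held 8 peaks up to 5.04 where it overlaps the transcribed pseudogene 6330549D23Rik. Luc7l, a splicing factor associated with the U1 small nuclear ribonucleoprotein, held 6 peaks within the pseudogene Gm16580, at 3.79, 3.69, 3.24, 3.92, 5.18 and 4.07. The strongest was chr17:26270223-26270242, only 20 nt wide. The strand of Luc7l here rests on its 2 peaks outside the pseudogene, at 3.25 and 3.22. The first lies just past the edge of the pseudogene, beside the 6 peaks inside it, and the second near the 3′ end of Luc7l. Other loci of this kind were Lrrc58 with Gm15725 (8 peaks up to 3.82), Glcci1 with Gm16042 (8 up to 3.51), Srgap3 with LOC108169181 (7 up to 4.30), Arhgef12 with Gm5831 (4 up to 4.49) and Farp2 with Gm18874 (3 up to 4.63). The strands of these pseudogenes were not known, so each could share the strand of the peaks. Pseudogenes can share reads with near-identical copies elsewhere, and the part of such reads was not tested.

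The locus without a coding gene held Gm40630, Gm51798 and the transcribed pseudogene Tdg-ps2 on chromosome 10. Its 5 peaks were on the minus strand at 5.09, 4.04, 4.17, 3.67 and 4.18, the strongest at chr10:42052744-42052882. All 5 lay within the span of Tdg-ps2 (chr10:42052558-42055453). Gm51798 is on the plus strand, and the strands of the other genes were not known. Tdg, the thymine DNA glycosylase gene whose name the pseudogene carries, had 0 listed peaks.

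The other locus of 3 genes held Nptxr, the neuronal pentraxin receptor, with Npcd and the lncRNA Gm30977. Its 17 peaks on the minus strand had a median of 4.23 and a maximum of 5.01 at chr15:79787345-79787437. Gm30977 is on the plus strand, and neither Npcd nor Nptxr had a known strand here.

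Several overlaps gave peaks to genes on the same strand, which strand cannot separate. The fullest was Zfp91, a zinc finger ubiquitin ligase, with Gm44505, a lncRNA entry on the same strand that starts at the same position. Its 22 peaks had a median of 3.68 and a maximum of 4.48. Raver1 with Gm38431 had 7 peaks up to 4.75. Atrip with Atrip-trex1 had 3 up to 4.42, Cdk5r2 with Gm16582 had 3 up to 4.04, and Sox4 with Gm46405 had 2 up to 3.03. The same-strand coding pairs, Foxm1 with Tex52 and Arpc4 with Ttll3, had 1 peak each, as had Ipo11 with Ipo11-lrrc70.

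The Mir546 hairpin was the small RNA gene of the set. Ctdsp2 (chr10:126978717-126999975, plus strand) had 16 peaks in all, from 3.21 to 5.01, between positions 126997542 and 126999858. The 2 with their midpoint in the hairpin, chr10:126998426-126998459 at 4.21 and chr10:126998481-126998527 at 4.36, lay among 14 others with a median of 3.67. The hairpin (chr10:126998440-126998560) is 1535 to 1415 nt from the gene's 3′ end. The stronger of the pair holds the last 6 bases of mature miR-546, printed in capitals above, and none of its seed. The Mir26a-2 hairpin of the same gene, which gives miR-26a-5p, was 1929 nt from the nearest peak. Since the peaks run on both sides of the Mir546 hairpin on the same strand, the precursor and the Ctdsp2 mRNA cannot be told apart here.

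For 6 loci the gene was reached by elimination, because the known gene lay on the other strand. Reep3, which shapes the endoplasmic reticulum, held 19 peaks opposite Gm31763, with a median of 3.67 and a maximum of 4.26. Abi2, an actin regulator, held 11 opposite Raph1 up to 4.08, and Vamp3, a vesicle fusion protein, 5 up to 4.48. Arl8b had 4 up to 3.85, and Becn1 and Fam78b had 1 each, at 3.73 and 3.11.

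Peaks on the strand of Zbtb20 were also listed past its annotated end. Zbtb20 (chr16:42875689-43634392, plus strand), a zinc finger repressor, overlaps the 3′ end of the immune receptor gene Tigit (chr16:43626137-43665125, minus strand). It had 9 peaks inside the overlap and 4 before it, and 4 more plus-strand peaks lay in Tigit alone, 1266 to 5466 nt past the annotated end of Zbtb20, up to 4.05. Elk4, an ETS factor, had 2 peaks inside its overlap with Mfsd4a at 3.08 and 3.01, and 7 further plus-strand peaks in Mfsd4a alone, 1477 to 4763 nt past its end and up to 4.59. Whether these peaks belong to longer transcripts of Zbtb20 and Elk4 was not tested. Neither Tigit nor Mfsd4a had a peak on its own strand. These 11 peaks count as peaks in 1 gene when strand is ignored.

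**Figure D4:**
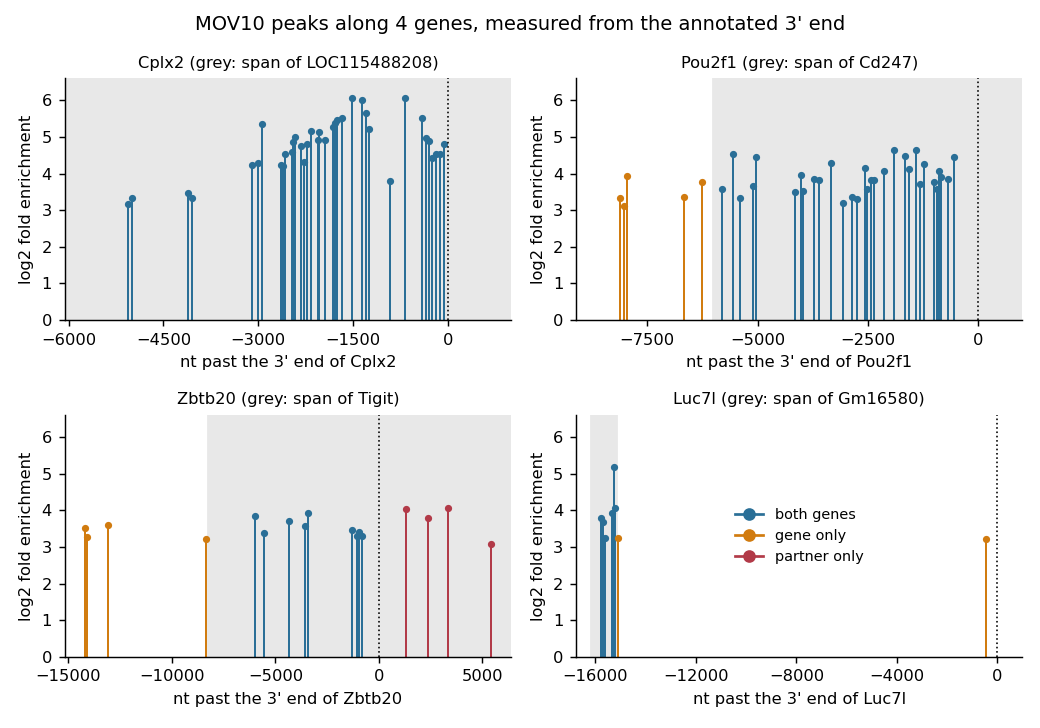
Each stem is a peak at its midpoint, in nt from the annotated 3′ end of the named gene (dotted line at 0), with its log2 fold enrichment as height. Blue stems lie in both genes, orange stems in the named gene only and red stems in the partner only, whose span is shaded grey. Peaks of Cplx2 and Pou2f1 lie before their 3′ ends, 4 peaks lie past that of Zbtb20, and 6 peaks of Luc7l lie inside the pseudogene Gm16580.

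Of the 128 strand-matched coding genes, 83 (406 peaks) had peaks only in overlaps, with a median of 2 per gene, and 45 (215 peaks) also had peaks where they are the lone gene. Among the 83, every partner lay on the opposite strand for 65 genes (333 peaks), and a partner of unknown strand was present for 18 (73 peaks). Of the 83, 13 (87 peaks) lie wholly inside their partner, so they could have no peak outside it. Coding genes with peaks in 1 gene numbered 1686 with strand ignored, and 3 of these, Mfsd4a, Tigit and Zfp335, had only opposite-strand peaks. The other 1683 and the 83 together made 1766 coding genes with peaks. Genes with peaks only in overlaps that were placed by elimination or share their strand, such as Reep3 and Zfp91, are not among them.

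Hand-written gene lists do not hold every gene of their theme. Among genes with a peak, listed genes had an overlap peak matched to them alone by strand about as often as all coding genes. A peak by strand was found for 132 of the 397 listed genes and 1766 of all 21900 coding genes, a larger share of the lists. Of these, 9 (6.82%) and 128 (7.25%) had such an overlap peak. Overlap peaks with several genes on their strand, as in Ctdsp2, are left out of both counts. The counts of single lists below are too small to set against these shares.

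Of 30 listed genes of microRNA silencing, 1 had a peak in an overlap on its strand, and 11 had a peak in 1 gene. It was Cnot9, a subunit of the CCR4-NOT deadenylase, which lies inside the span of the deubiquitinase gene Usp37. Its peaks were chr1:74529450-74529508 at 4.01 and chr1:74530005-74530024 at 3.23, both on the strand of Cnot9. The list of 49 translation factors had 1 such gene and 11 with a peak in 1 gene. It was Paip2b, an inhibitor of poly(A)-binding protein, with peaks at 3.45 and 3.35. Eif5b lies in an overlap too, but the 2 peaks there, up to 3.11, were on the strand of Rev1. Eif5a2, a translation factor outside the list, held 12 peaks opposite Gm32950 up to 4.73.

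The list of 30 microRNA host genes had 1 gene with an overlap peak matched to it alone by strand, and 8 with a peak in 1 gene. It was Mest, an imprinted gene, with peaks at 3.35, 3.68 and 3.18 where it overlaps the coatomer gene Copg2. Ctdsp2, described above, is also in that list. Its peaks in the Mir546 hairpin were not counted, since both genes lie on their strand. The list of 31 snoRNA host genes had 1 such gene and 3 with a peak in 1 gene. It was Tnpo2, a nuclear import receptor, with 7 peaks up to 4.12. The list of 67 genes of the ubiquitin system had 4 such genes and 25 with a peak in 1 gene. Beside Ube4a, they were Usp22 with 6 peaks up to 3.86, Usp34 with 4 up to 3.66 and Trim32, which lies inside Astn2, with 1 at 3.72. Ube3a, described above, is not in that list.

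The list of 57 chromatin regulators had 1 such gene, Cbx6, and 24 with a peak in 1 gene. Outside the list, Pbrm1 and Msl1 are described above, and Kdm7a, a histone demethylase, held 11 peaks opposite 4930599N23Rik up to 4.95. No gene with an overlap peak on its strand was in the lists of mRNA decay (30 genes, 7 with a peak in 1 gene), splicing proteins (47 and 13) or neuronal cytoskeleton and adhesion (62 and 25). Genes of these themes outside the lists did have such peaks. They include the splicing factor Luc7l, described above, the tubulin gene Tuba1b with 5 up to 4.22, the microtubule-binding Clasp2 with 7 up to 3.92 and the actin-binding Coro1c with 7 up to 4.17.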

How the data were processed

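MOV10 eCLIP in N2A cells gave 2 immunoprecipitate and 2 input libraries. The deposited file is 1 peak list over all libraries, with no header. Its values were read as the −log10 p and the log2 fold enrichment computed by the authors, from their ranges and from the column order of published eCLIP peak files. If this reading is wrong, statements on strength change and those on position do not. Per the submitters' processing notes, the builds were mm10 and GRCm38.p6. The sources used here do not name the aligner or peak caller, or say how replicates were combined.

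Midpoints were set against RefSeq gene spans, and strands came from RefSeq tables of gene starts and microRNAs, otherwise from a gene's peaks outside overlaps. Loci were named by number of peaks, by strength, by kind of overlap and by membership of hand-written lists. Ccnd1, Ube3a, Elfn2, Elk4, Zfp335, Eif5a2, Kdm7a, Tuba1b, Clasp2, Coro1c, the genes far from a 3′ end, and those named only for a pseudogene, a shared strand or elimination were chosen after their values were seen. The members and lists were chosen with earlier results of these data known. No test was made, since no value per library was used. The placement of peaks was checked on simulated data. Python 3.11.15, pandas 2.3.3 and scipy 1.17.1 (exact binomial intervals, which cover counting error only) were used. The intervals treat peaks as independent, although many abut and crowd in few loci, so they are likely too narrow. Exons, untranslated regions and peak sequences were not analysed here.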

Additional observations from a re-analysis of the deposited data

How the results depend on the processing

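The number of peaks in overlaps (755) became 309 with coding entries only, 362 without predicted and clone-named entries, and 229 when only peaks enriched by 4 or more (log2) were kept. The matching shares of all peaks were 2.53%, 2.96% and 5.55%. The median enrichment was 3.56 with coding entries only and, by construction, 4.35 at an enrichment of at least 4. The difference from peaks in 1 gene was −0.148 with coding entries only and stayed below 0 under all 7 alternatives run. The share assigned by strand was 85.4% with coding entries only, 85.6% without predicted entries, 77.2% with strands from the RefSeq tables alone and 27.5% with strands from peaks alone. The share near the 3′ end was 97.8% at an enrichment of at least 4 and 70.0% within 2 kb. All other alternatives (touching or complete overlap, a −log10 p of at least 5, merging of touching peaks) moved these values by less than 1.5 times for counts, 0.1 for medians on the log2 scale, or the 95% interval for shares. The share on the coding strand opposite a lncRNA was 100% under the 4 alternatives added after seeing the data. Leaving out a replicate was not possible. No paired analysis was possible because the list combines all libraries in 1 value per peak. Depth behind a peak is unknown.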
